A study of Mus musculus with 9 samples.

Results

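Plasmacytoid dendritic cells were followed through 8 genes that mark or specify them in the mouse: Siglech, Tcf4, Klk1, Cox6a2, Pacsin1, Runx2, Lair1 and Irf8. The genes were taken by name from the 21965 identifiers of the count table, with no threshold on their values, and all 8 were found. RNA was sequenced from spleens of mice aged 16 weeks in 3 groups of 3 libraries. BWF1 females, the first generation of the cross of NZB with NZW, are named in the series title as prone to lupus. BWF1 males (same cross and age) and BALB/c females (an inbred strain of the same sex and age) are named there as not prone. No treatment, transgene or deletion is named for any group. BWF1 females and males differ in sex, while BWF1 and BALB/c mice differ across the genome, so no single allele separates those groups. BWF1 males and BALB/c females differ in both strain and sex, which their comparison cannot tell apart. The labels do not say whether replicates were single animals, and p-values then measure the spread between these libraries.

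Plasmacytoid dendritic cells are rare round cells of blood, spleen and lymph node that secrete type I interferon when Toll-like receptors in their endosomes meet viral or self nucleic acid. They are studied in lupus because immune complexes that carry DNA or RNA can engage those receptors. The transcription factor Tcf4 (E2-2) is needed for the lineage, Irf8 and Runx2 act in its development, function or exit from the bone marrow, and Id2 opposes Tcf4 by holding E proteins off DNA. Siglech, a sialic acid binding lectin that signals through Dap12 (Tyrobp), is among the most restricted surface markers of the cell in mice. Tcf4, Irf8, Runx2 and Lair1 are also made by other leukocytes, B cells among them for Tcf4 and Irf8.

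It is unclear which cells the RNA came from. Splenocytes are named in the series title and design, but the single samples are labelled as macrophages that were sorted as CD11b+F4/80+. In that gate plasmacytoid dendritic cells, which carry little CD11b, would be rare. Itgam, which encodes CD11b, stood at 0 to 6.66 CPM (counts divided by a TMM-scaled library size and put on a common total) and lay below the count filter. Adgre1, which encodes F4/80, stood at 5.26 to 20.8 CPM. The 9 B cell markers together reached 2164 to 3247 CPM and the 11 macrophage markers 123 to 404 CPM. Markers of the labelled gate were thus low in these libraries, and B cell markers were present in each. In these bulk libraries, fewer cells of a type and less RNA per cell cannot be told apart.

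The libraries were shallow, with 458608 (BWF1 female 1) to 4305003 (BWF1 male 3) gene counts, and Lars2 alone took 42.3% to 76.6% of them. By gene counts with Lars2, BWF1 females were the shallowest group, at 458608, 673160 and 469329, below every library of the other groups. Without Lars2, BWF1 male 1 had 227184 counts, below the 254261 of BWF1 female 2. The TMM factors ran from 0.530 (BWF1 male 1) to 1.40 (BALB/c female 2). Of all alignment records, 1.29% to 2.82% per library were assigned to genes, while 55.9% to 61.5% had no unique alignment. The 8 genes together had 169 counts in BWF1 female 3 and 1954 in BWF1 male 3. In any library taken alone, 3 counts of a gene correspond to 0.625 to 6.62 CPM, which limits what the rarer members can show and covers counting error only. By their file names, 5 libraries (all BALB/c females, BWF1 male 2 and BWF1 female 2) bear an ORIG tag and the other 4 an RL tag, with a meaning the labels do not give. Since no BALB/c library has the RL tag, the tag and the strain are partly confounded.

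Siglech and Pacsin1 are shown by their promoters, because the former is the most cell-restricted member and the latter came nearest to the threshold of the tests. Each sequence runs from 250 bases before to 50 bases after a RefSeq start on GRCm38.p6, the build also called mm10, on the plus strand, 5′ to 3′. Capitals mark E-boxes, the 6-base motif CANNTG that E proteins such as the Tcf4 product bind. The Siglech window is chr7:55767934-55768233 and the Pacsin1 window chr17:27684989-27685288, which starts inside the annotated gene.
Siglech: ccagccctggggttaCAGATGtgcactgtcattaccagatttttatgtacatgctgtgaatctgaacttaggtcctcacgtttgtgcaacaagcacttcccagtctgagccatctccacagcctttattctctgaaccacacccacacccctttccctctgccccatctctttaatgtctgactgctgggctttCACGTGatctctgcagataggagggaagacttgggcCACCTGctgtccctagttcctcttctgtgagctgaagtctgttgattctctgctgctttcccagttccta
Pacsin1: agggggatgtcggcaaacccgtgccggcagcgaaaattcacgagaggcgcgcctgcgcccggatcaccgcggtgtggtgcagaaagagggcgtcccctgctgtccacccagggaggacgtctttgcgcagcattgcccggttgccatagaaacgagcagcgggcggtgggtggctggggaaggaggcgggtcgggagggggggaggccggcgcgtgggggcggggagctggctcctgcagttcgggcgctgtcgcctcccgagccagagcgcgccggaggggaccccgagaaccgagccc
The Siglech window holds 3 E-boxes and the Pacsin1 window 0, so the Pacsin1 sequence stands in lower case throughout. Of 32851 mouse windows of this length, 72.3% hold at least 1 E-box and the median window holds 1. Promoters of 6 of the 8 genes were matched. Klk1 had 3 E-boxes, Runx2 2, Lair1 1, and the Irf8 windows 0 and 2 at its separate starts. The Runx motif TGTGGT, on either strand, occurred once each in Siglech and Pacsin1, 3 times in Runx2 and in 16.8% of all windows. It occurred in 0 of the Klk1, Lair1 and Irf8 windows. Matches of different motifs may share bases, and a match describes letters, not binding.

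None of the 8 genes was called different in any comparison. Differences were tested with edgeR's quasi-likelihood test in a fit of all 9 libraries, with p adjusted by Benjamini and Hochberg over 7719 tested genes and a call at an adjusted p under 0.05. Of the 8 genes, 6 passed the count filter. In BWF1 females against BWF1 males 0 of the 6 were called, beside 2.19% of all tested genes. In BWF1 females against BALB/c females 0 of 6 were called beside 3.82%, and in BWF1 males against BALB/c females 0 of 6 beside 3.52%. At shares this low, 0 of 6 lies near the background. At an unadjusted p under 0.05 there were 0, 1 and 1 members in the same order, in both cases Pacsin1. DESeq2 called 0 members in each comparison, though it gave 4 of them no adjusted p in the first, and limma-voom called 0, 0 and 1. The median log2 fold change of the 6 was −0.23 in BWF1 females over BWF1 males, 0.07 in BWF1 females over BALB/c females and 0.02 in BWF1 males over BALB/c females, where the median over all tested genes was within 0.003 of 0. The comparisons share their groups and are not independent. Where 2 groups are said below not to overlap, as for Pacsin1 and Lair1, this is a description only. The share of all tested genes with such groups is not given here.

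**Figure D1:**
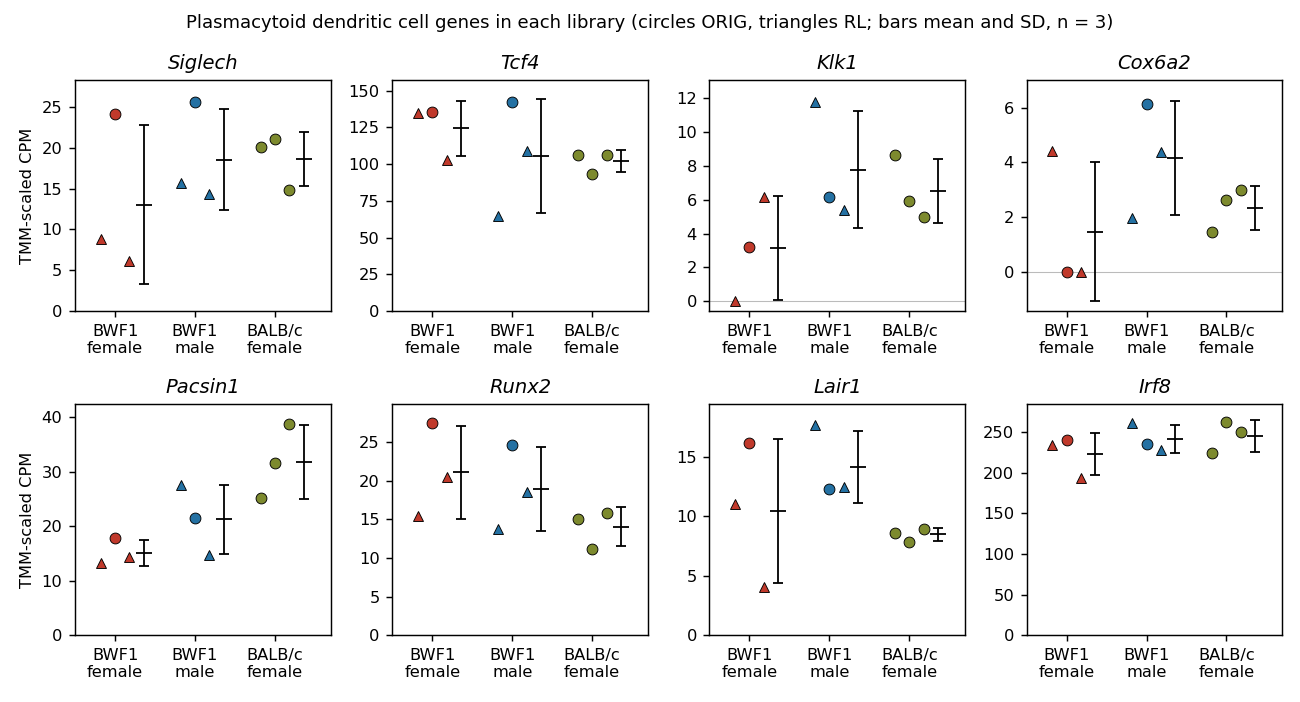
TMM-scaled CPM (y axis) of each of the 8 genes in each library, by group (x axis). Circles are libraries with the ORIG tag, triangles those with the RL tag, and black bars give mean and SD with n = 3. Pacsin1 separates BWF1 females (13.2 to 17.7 CPM) from BALB/c females (25.2 to 38.7 CPM), whereas Irf8 and Tcf4 overlap between all groups.

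**Figure D2:**
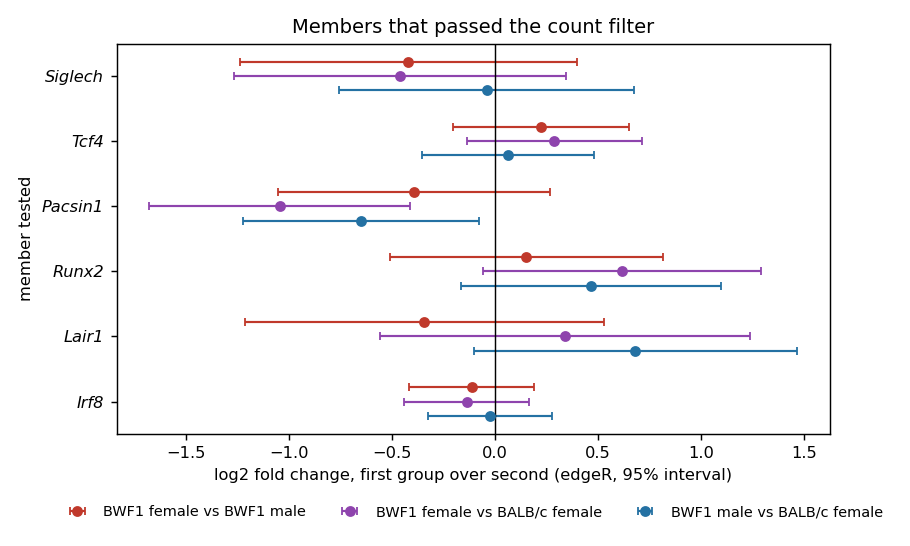
Log2 fold changes (x axis, first group over second) of the 6 tested members (y axis) in the 3 comparisons, with 95% intervals from edgeR. The Pacsin1 intervals against BALB/c females lie below 0 before adjustment, and all Irf8 intervals lie between −0.44 and 0.28.

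Siglech (ENSMUSG00000051504, mm10 chromosome 7, 55768178 to 55778925, plus strand) was detected in all 9 libraries. It stood at 8.82, 24.2 and 6.16 CPM in BWF1 females 1 to 3, at 15.7, 25.6 and 14.4 CPM in BWF1 males and at 20.1, 21.0 and 14.9 CPM in BALB/c females. BWF1 females held both the lowest libraries and nearly the highest, and all 3 groups overlapped. The lowest values rest on few reads, 4 counts in BWF1 female 1 and 3 in BWF1 female 3. Group levels were 13.1 ± 9.7, 18.6 ± 6.2 and 18.7 ± 3.3 CPM (SD, n = 3). The log2 fold change was −0.42 in BWF1 females over BWF1 males (95% interval −1.24 to 0.40, edgeR adjusted p = 0.645). Over BALB/c females it was −0.46 in BWF1 females (−1.27 to 0.35, adjusted p = 0.603) and −0.04 in BWF1 males (−0.76 to 0.68, adjusted p = 0.979). Leaving out 1 library in turn, the value in BWF1 females ran from −1.29 to −0.10 over BWF1 males and from −1.32 to −0.13 over BALB/c females. The intervals admit differences of more than 1 on the log2 scale in BWF1 females, so these libraries do not resolve a change of that size.

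Siglech also moved with the file tag. The 5 ORIG libraries stood at 14.9 to 25.6 CPM with a median of 21.0, and the 4 RL libraries at 6.16 to 15.7 CPM with a median of 11.6. Among RL libraries BWF1 females were at 8.82 and 6.16 CPM and BWF1 males at 15.7 and 14.4 CPM, so both males lay above both females. Among ORIG libraries the BWF1 female was at 24.2 CPM and the BWF1 male at 25.6 CPM, close to each other and above the 3 BALB/c libraries. With the tag as a term the log2 fold change was −0.58 in BWF1 females over BWF1 males (edgeR adjusted p = 0.428). Over BALB/c females it turned positive, at 0.10 in BWF1 females (adjusted p = 0.946) and 0.69 in BWF1 males (adjusted p = 0.484), and in ORIG libraries alone it was 0.38 and 0.46. The part of the tag in the Siglech levels was not tested.

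Pacsin1 (ENSMUSG00000040276, mm10 chromosome 17, 27655509 to 27711482, plus strand) encodes an adaptor that links membrane curvature to actin and endocytosis and is known from neurons and plasmacytoid dendritic cells. It stood at 13.2, 17.7 and 14.4 CPM in BWF1 females, 27.5, 21.5 and 14.8 CPM in BWF1 males and 25.2, 31.5 and 38.7 CPM in BALB/c females. Every BWF1 female library lay below every BALB/c library, while BWF1 males spanned the gap between them. Group levels were 15.1 ± 2.4, 21.3 ± 6.3 and 31.8 ± 6.8 CPM. The log2 fold change in BWF1 females over BALB/c females was −1.05 (SE 0.31, 95% interval −1.68 to −0.41), with an unadjusted p of 0.00224 and an edgeR adjusted p of 0.0556, which misses the threshold. In BWF1 males over BALB/c females it was −0.65 (SE 0.28, −1.23 to −0.08, adjusted p = 0.225), and in BWF1 females over BWF1 males −0.40 (−1.06 to 0.26, adjusted p = 0.583).

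The Pacsin1 call depended on the processing although its direction did not. Against BALB/c females, BWF1 females were called lower with no filter beyond 1 count (edgeR adjusted p = 0.0287), with a robust dispersion (0.0494) and without BWF1 male 1 (0.0488). With the tag as a term the adjusted p was 0.28 (log2 fold change −0.91). BWF1 males were called lower with limma-voom (log2 fold change −0.84, adjusted p = 0.0175) and with the older edgeR dispersion (−0.79, adjusted p = 0.0492). Over all alternatives, the log2 fold change over BALB/c females ran from −1.35 to −0.81 in BWF1 females and from −1.16 to −0.38 in BWF1 males. The summed B cell markers took the same order of groups as Pacsin1, at 2318 ± 134, 2616 ± 299 and 3223 ± 22 CPM (BWF1 females, then males, then BALB/c), with ranges of 2164 to 2407, 2297 to 2890 and 3203 to 3247 CPM. All 9 markers of that list were tested and 0 were absent from all libraries, and their part in the Pacsin1 levels was not tested.

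**Figure D3:**
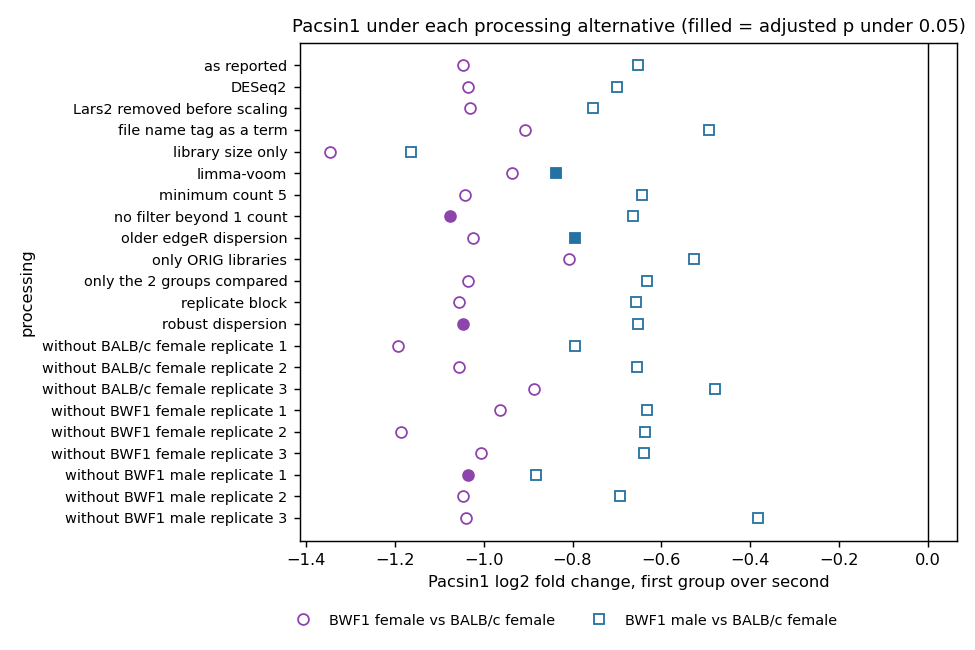
Pacsin1 log2 fold change (x axis) under each processing alternative (y axis), with BWF1 females (circles) and BWF1 males (squares) over BALB/c females. Filled symbols have an adjusted p under 0.05. Every value lies below 0, 3 circles and 2 squares are filled, and the values as reported are −1.05 and −0.65.

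The lineage factors Tcf4 and Irf8 were the most deeply counted members. Tcf4 (ENSMUSG00000053477) stood at 134.5, 135.5 and 102.7 CPM in BWF1 females, 64.7, 142.5 and 109.1 CPM in BWF1 males and 106.4, 93.3 and 106.1 CPM in BALB/c females. BWF1 males held both its lowest and its highest library, and the groups overlapped. Its log2 fold change was 0.22 in BWF1 females over BWF1 males (95% interval −0.20 to 0.65, edgeR adjusted p = 0.640). Over BALB/c females it was 0.29 in BWF1 females (−0.14 to 0.71, adjusted p = 0.515) and 0.06 in BWF1 males (−0.36 to 0.48, adjusted p = 0.923).

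Irf8 (ENSMUSG00000041515, mm10 chromosome 8, 120736358 to 120756694, plus strand) encodes an interferon regulatory factor of dendritic cells, monocytes and B cells. It stood at 233.8, 240.4 and 193.0 CPM in BWF1 females, 260.9, 234.8 and 227.8 CPM in BWF1 males and 223.5, 261.5 and 249.8 CPM in BALB/c females. All libraries but BWF1 female 3 stood at 223.5 CPM or more, and the groups overlapped. The log2 fold change was −0.11 in BWF1 females over BWF1 males (−0.42 to 0.19, edgeR adjusted p = 0.762). Over BALB/c females it was −0.14 in BWF1 females (−0.44 to 0.17, adjusted p = 0.697) and −0.02 in BWF1 males (−0.33 to 0.28, adjusted p = 0.964). For Irf8 the intervals of this fit were thus narrower than for the other members. Over all alternatives, its log2 fold change over BALB/c females ran from −0.44 to −0.009 in BWF1 females and from −0.54 to 0.02 in BWF1 males.

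Runx2 (ENSMUSG00000039153, mm10 chromosome 17, 44495987 to 44814797, minus strand), a runt domain factor that is also central to bone formation, stood at 15.4, 27.4 and 20.5 CPM in BWF1 females, 13.7, 24.6 and 18.5 CPM in BWF1 males and 15.1, 11.2 and 15.9 CPM in BALB/c females. BALB/c females had the lower mean, 14.04 ± 2.5 CPM against 21.1 ± 6.0 in BWF1 females and 19.0 ± 5.5 in BWF1 males, within overlapping values. The log2 fold change over BALB/c females was 0.62 in BWF1 females (−0.06 to 1.29, edgeR adjusted p = 0.349) and 0.47 in BWF1 males (−0.17 to 1.10, adjusted p = 0.488). Between BWF1 females and males it was 0.15 (adjusted p = 0.872). Supt3 lies across it on the opposite strand but shares 0 exon bases with it. Antisense genes that were not counted also overlap it, and any reads they share with its exons cannot be told apart without a stated strand setting.

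Lair1 (ENSMUSG00000055541, mm10 chromosome 7, 4003402 to 4063204, minus strand) encodes an inhibitory receptor for collagen on many leukocytes. It stood at 11.03, 16.1 and 4.11 CPM in BWF1 females, 17.7, 12.3 and 12.5 CPM in BWF1 males and 8.62, 7.89 and 8.92 CPM in BALB/c females. Every BWF1 male library lay above every BALB/c library, while BWF1 females spread across both. The log2 fold change in BWF1 males over BALB/c females was 0.68 (−0.11 to 1.47) and was not called (edgeR adjusted p = 0.400). In BWF1 females it was −0.34 over BWF1 males (−1.21 to 0.53, adjusted p = 0.748) and 0.34 over BALB/c females (−0.56 to 1.24, adjusted p = 0.758). Summed macrophage markers, from cells that can also carry Lair1, were 303 to 404 CPM in BWF1 males, 168 to 190 CPM in BALB/c females and 123 to 158 CPM in BWF1 females. Of the 11, 0 were absent from all libraries, and their part in the Lair1 levels was not tested.

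Klk1 and Cox6a2 lay below the count filter and are given as counts. Klk1 (ENSMUSG00000063903, mm10 chromosome 7, 44225360 to 44229618, plus strand), a tissue kallikrein that cleaves kininogen, had 0, 2 and 3 counts in BWF1 females, 6, 6 and 26 in BWF1 males and 12, 9 and 5 in BALB/c females. Pooled over libraries and scaled, the ratio of BWF1 females to BWF1 males was 0.530 (exact 95% interval 0.163 to 1.35, counting error only). It was 0.483 (0.145 to 1.28) to BALB/c females, and that of BWF1 males to BALB/c females was 0.912 (0.539 to 1.56). Its near-identical kallikrein neighbours could share reads, so its counts are uncertain.

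Cox6a2 (ENSMUSG00000030785, mm10 chromosome 7, 128205435 to 128206387, minus strand), the muscle form of a cytochrome c oxidase subunit, had 2, 0 and 0 counts in BWF1 females, 1, 6 and 21 in BWF1 males and 2, 4 and 3 in BALB/c females. The pooled ratio was 0.288 (0.033 to 1.14) for BWF1 females to BWF1 males and 0.559 (0.059 to 2.699) to BALB/c females. For BWF1 males to BALB/c females it was 1.94 (0.890 to 4.67). Of its 680 exon bases, 70 are shared with Itgad on the opposite strand. For both genes every interval includes 1, and a difference was not detectable at this depth.

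Compared per length, Irf8 was the most abundant member by far. Per kb of exon, the mean over the 9 libraries was 33.5 CPM for Irf8, 5.39 for Klk1, 4.96 for Siglech, 4.04 for Tcf4, 3.91 for Cox6a2, 3.48 for Pacsin1, 2.04 for Runx2 and 1.47 for Lair1. Apart from Irf8, neighbours in this order overlapped across libraries. Exon lengths ran from 680 bases in Cox6a2 to 27382 in Tcf4, and transcripts shorter than all annotated exons together are understated.

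**Figure D4:**
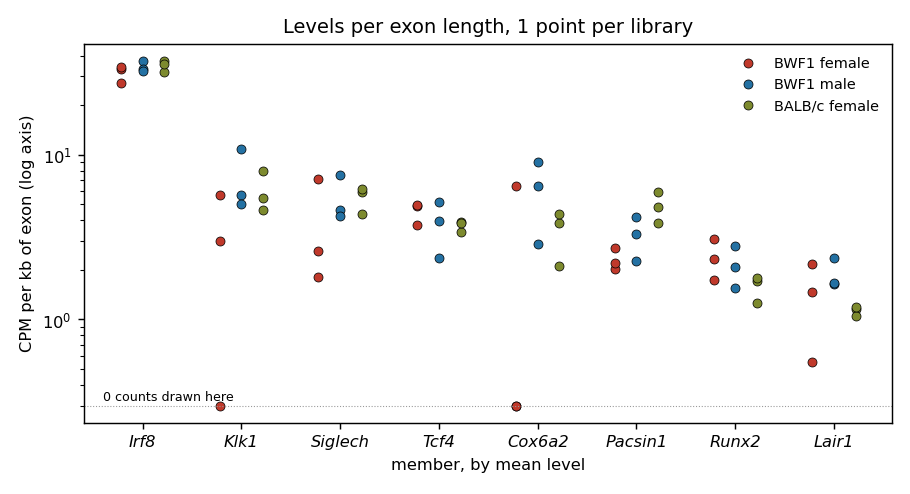
CPM per kb of annotated exon (log y axis) of each member (x axis, by mean level), 1 point per library, coloured by group. Libraries with 0 counts are drawn on the dotted line. Irf8, at a mean of 33.5, stands apart from the other members, whose means run from 1.47 to 5.39.

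Across the 9 libraries, log2 CPM of Siglech followed that of Irf8 with a Pearson r of 0.60, Lair1 with 0.56, Pacsin1 with 0.49 and Tcf4 and Runx2 with 0.13 each. These are descriptions over libraries that share depth, tag and group. Among 4770 genes with a mean of at least 20 CPM, the closest to Siglech over the 9 libraries were Shprh (r = 0.94), Fem1c (0.93) and Sp1 (0.93). Picked as the highest of 4770 values, they carry no p, and a link to Siglech was not tested. The sum of the 8 members, to which Irf8 and Tcf4 contribute most, was 411 ± 59.5 CPM for BWF1 females, 431 ± 36.7 for their males and 429 ± 17.5 for BALB/c females.

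The regulators Spib, Bcl11a, Zeb2, Cbfa2t3, Ikzf1, Flt3 and Id2 were all tested. In BWF1 females 0 of 7 were called against either group, with Cbfa2t3 nearest against BWF1 males (log2 fold change −0.53, edgeR adjusted p = 0.207) and Id2 nearest against BALB/c females (−0.60, adjusted p = 0.196). Cbfa2t3, a corepressor that holds Id2 down in plasmacytoid dendritic cells, was called higher in BWF1 males than in BALB/c females. It stood at 64.7, 82.0 and 80.2 CPM in BWF1 males and 34.5, 51.9 and 50.5 CPM in BALB/c females, groups that did not overlap. The log2 fold change was 0.74 (SE 0.21, edgeR adjusted p = 0.0472).

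That Cbfa2t3 call ended under 9 of 21 alternatives, among them DESeq2 (adjusted p = 0.0643), the tag as a term (0.192) and ORIG libraries alone (0.053). It also ended without BALB/c female 1, 2 or 3 (edgeR adjusted p = 0.235, 0.0896 and 0.0753) and without BWF1 male 2 or 3 (0.145 and 0.173). Spib, an Ets factor of plasmacytoid dendritic cells and B cells, was called in 0 comparisons, with 197 ± 11 CPM in BWF1 females, 223 ± 16 in the males and 197 ± 14 in BALB/c. The list medians of the log2 fold change were −0.18, 0.08 and 0.18, beside about 0 over all tested genes.

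Of 13 further markers read here, 7 were tested and only Ly6d was called. Ly6d, a Ly6 family surface protein of lymphoid progenitors with B and plasmacytoid dendritic potential and of some B cells, differed between all groups. It stood at 116.9, 88.7 and 65.7 CPM in BWF1 females, 156.9, 146.6 and 182.2 CPM in BWF1 males and 35.2, 41.4 and 37.7 CPM in BALB/c females. None of the 3 groups overlapped. Its log2 fold change over BALB/c females was 2.09 in BWF1 males (SE 0.19, edgeR adjusted p = 5.79e-08) and 1.24 in BWF1 females (SE 0.20, adjusted p = 0.000283), and it was lower in BWF1 females than in the males (−0.85, SE 0.19, adjusted p = 0.0149). The last call ended without BWF1 female 2 or 3 (adjusted p = 0.0511 and 0.0848) or BWF1 male 3 (0.119). The medians of the 7 tested markers were −0.18, 0.52 and 0.65.

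Of 17 genes of nucleic acid sensing and its signalling, 13 were tested. Only Irf7, which encodes the factor that drives interferon alpha transcription, was called, as lower in females of BWF1 than of BALB/c. It stood at 17.6, 8.07 and 12.3 CPM against 23.0, 31.5 and 31.7 CPM, with no overlap, and its log2 fold change was −1.21 (SE 0.34, edgeR adjusted p = 0.0463). BWF1 males, at 9.81, 20.5 and 13.5 CPM, missed the threshold (−0.95, adjusted p = 0.0861). The call in females ended under 11 of 21 alternatives, among them DESeq2 (adjusted p = 0.194), limma-voom (0.1) and the tag as a term (0.248). Leaving out BALB/c female 1, 2 or 3 gave edgeR adjusted p-values of 0.0564, 0.156 and 0.14, leaving out BWF1 female 2 or 3 gave 0.195 and 0.0866, and leaving out BWF1 male 3 gave 0.0574.

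The receptors themselves were not called. Tlr7, whose product senses RNA, had 13.8 ± 4.3 CPM in BWF1 females, 21.6 ± 11 in the males and 16.2 ± 4.5 in BALB/c. Tlr9, whose product senses CpG DNA, had 96.1 ± 10.6, 105 ± 4.4 and 92.8 ± 15.8 CPM in that order. Tyrobp, the Siglech adaptor, came nearest to a call in both comparisons with BWF1 males, at −0.68 in BWF1 females over BWF1 males (edgeR adjusted p = 0.124) and 0.68 in BWF1 males over BALB/c females (adjusted p = 0.0845, and called by limma-voom at 0.0463). Ifna1, Ifna2, Ifna4 and Ifnb1 had 0 counts in all 9 libraries, which allows up to 0.255 CPM over the libraries together. That bound covers counting error only, and records without a unique alignment were not assigned to genes. The list medians were −0.26, −0.06 and 0.17.

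**Figure D5:**
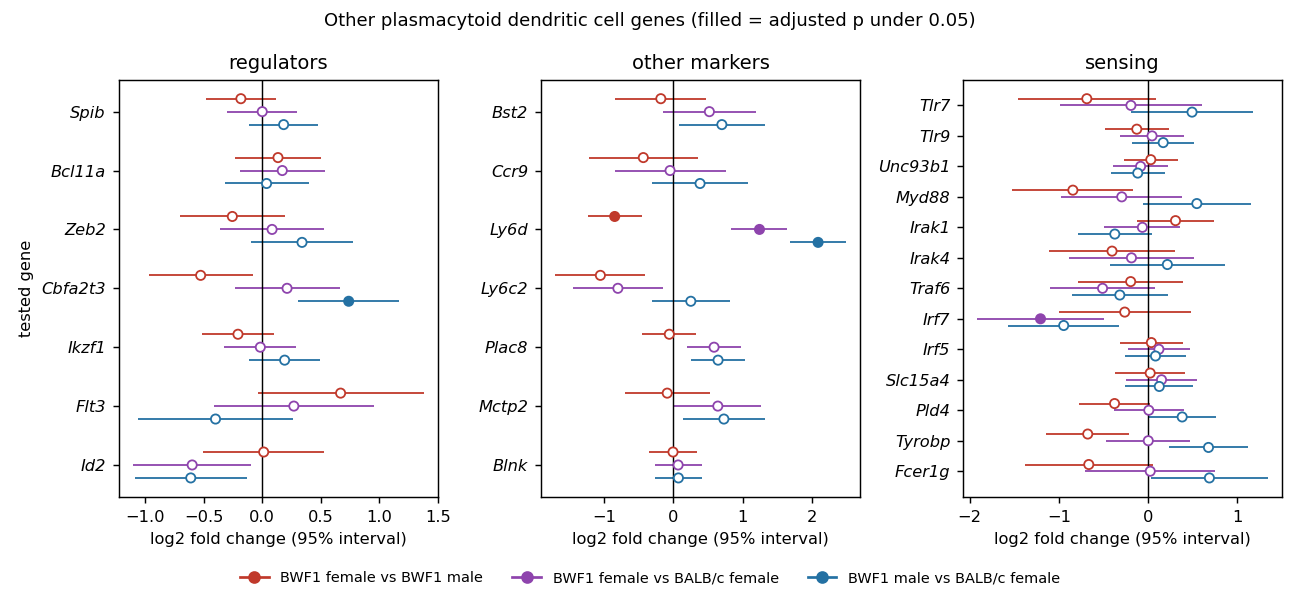
Log2 fold changes with 95% intervals (x axis) of the tested regulators, further markers and sensing genes (y axis) in the 3 comparisons. Filled points have an edgeR adjusted p under 0.05. The filled points belong to Cbfa2t3, Ly6d and Irf7.

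Relatives of the members were read alongside them, and 10 of 17 were tested. Against BALB/c females, Siglecg, an inhibitory sialic acid binding lectin of B cells, was lower in both BWF1 groups. It stood at 57.3, 50.01 and 61.6 CPM in BWF1 females, 45.1, 67.7 and 49.1 CPM in BWF1 males and 112.8, 119.6 and 86.2 CPM in BALB/c females. All BWF1 libraries lay below all BALB/c libraries, with log2 fold changes of −0.92 in females (SE 0.20, edgeR adjusted p = 0.00629) and −0.97 in males (SE 0.19, adjusted p = 0.00286). With the tag as a term both calls ended (adjusted p = 0.11 and 0.052), and in ORIG libraries alone that of the males did (0.24).

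Cd22, a further B cell lectin of that family, was lower in females of BWF1 than of BALB/c, at 304.4, 254.9 and 340.8 CPM against 421.2, 446.9 and 466.9 CPM (−0.57, SE 0.15, edgeR adjusted p = 0.0225). The groups did not overlap. The call ended without BALB/c female 2 or 3 (adjusted p = 0.0796 and 0.0978), without BWF1 female 1 or 2 (0.0695 and 0.14) and with the tag as a term (0.0976). Between BWF1 females and males 0 of the 10 relatives were called, with Cox6a1 nearest (−0.84, adjusted p = 0.171, and called at 0.0199 with no filter beyond 1 count). The list medians were −0.13, −0.17 and 0.02.

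Marker lists of other spleen cells gave calls in the same fit, though whether they differ from the members was not tested. In BWF1 females against BWF1 males, 4 of 8 macrophage markers were called lower (Csf1r, Vcam1, C1qa, C1qc), and all 4 calls held without any single library. Of 7 natural killer cell markers 4 were lower (Prf1, Gzma, Nkg7, Klrb1c), and at least 3 of these held. Of 8 T cell markers 4 were lower (Cd8a, Cd3g, Cd3e, Cd4), which fell to 1 without BWF1 female 3 or male 3 and to 2 without BWF1 female 2 or male 2. Jchain was lower as 1 of 5 tested plasma cell markers, of which 4 had negative log2 fold changes and 1 a positive one. Col1a2 was higher as 1 of 4 tested stromal markers, of which 2 had positive and 2 negative values. The calls of Jchain and Col1a2 held without any single library. Sirpa was called lower as 1 of 3 tested conventional dendritic cell markers, of which 2 had negative and 1 a positive log2 fold change. The Sirpa call ended without BWF1 female 1 or 2, BWF1 male 2 or 3 or BALB/c female 3. Epb42 (1 of 4 tested erythroid markers) was called higher with overlapping groups, a call that ended without BWF1 female 3 or BWF1 male 2 or 3. The 6 erythroid markers summed to 139, 111 and 665 CPM in BWF1 females 1 to 3, so the last of these stood apart. With scaling by library size only, without TMM factors, the calls of C1qc, Nkg7, Klrb1c, Cd3e, Cd3g, Cd4 and Sirpa ended. Their values stayed lower in BWF1 females.

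Against BALB/c females, BWF1 females had 4 of 9 B cell markers lower (Fcer2a, Cr2, Cd22, Cd79a). That count fell to 1 without BWF1 female 1 and to 2 without any of the 3 BALB/c libraries. With the tag as a term the calls of Cr2, Cd22 and Cd79a ended, as they did with library size only. Cd3g and Cd8a were lower as 2 of 8 T cell markers, of which 2 had positive log2 fold changes. Prf1 was lower as 1 of 7 natural killer markers, of which 3 had positive values. The calls of Cd3g and Prf1 held with each library left out, whereas that of Cd8a ended without BWF1 female 2 or BALB/c female 3. In BWF1 males, 5 of 8 macrophage markers were higher, which fell to 3 without BWF1 male 3 or BALB/c female 2. Of 7 natural killer markers 4 were higher, which fell to 2 without BWF1 male 2 or 3 or BALB/c female 1 or 2. Of 5 plasma cell markers 4 were higher, which fell to 2 without BWF1 male 1 or 2 or BALB/c female 2. All 4 tested erythroid markers were lower, which fell to 1 without BALB/c female 2 and to 2 without BWF1 male 3. Sirpa was the only 1 of 3 tested conventional dendritic cell markers called, as higher, while 2 of the 3 log2 fold changes were negative. The Sirpa call ended without BALB/c female 2 or BWF1 male 3. Fcer2a (1 of 9 B cell markers) and Col1a2 (1 of 4 tested stromal markers) were lower and held. In BWF1 males the tag as a term ended the calls of C1qa, C1qb, Nkg7, Prf1, Sdc1, Mzb1 and Sirpa. Library size only ended all 5 macrophage calls, all 4 plasma cell calls and that of Sirpa in BWF1 males. It also ended the natural killer calls of Gzma, Prf1 and Nkg7, while that of Klrb1c held. The values of these genes stayed higher in BWF1 males, so most of these calls depend on the scaling but their direction does not. Conventional dendritic cell markers, the nearest other lineage, summed to 108 to 138 CPM in BWF1 females, 151 to 169 in BWF1 males and 138 to 145 in BALB/c females.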

How the data were processed

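Libraries were made from total RNA after ribosomal RNA depletion, per the labels' protocols. The authors deposited raw read counts per gene. The submitters' processing notes name STAR 2.6, FastQC 0.10.1 and mm10. Which annotation, strand setting and features were counted is not given in the sources used here. Of 21965 identifiers, 21939 matched GENCODE M21, which gave names, positions and exon lengths.

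Genes were filtered with filterByExpr (minimum count 10), which left 7719, and scaled with TMM factors. edgeR 4.0.16 in R 4.3.3 fitted a quasi-likelihood model to all 9 libraries, and 3 comparisons were tested with adjustment over all tested genes. Intervals of fold changes cover 95%. Ratios of pooled counts below the filter have exact binomial intervals. DESeq2 1.42.0 and limma-voom 3.58.1 were alternatives, as were other scalings, filters, dispersions and sets of libraries. Gene counts ran from 458608 to 4305003 per library, and precision follows from these depths.

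The members and lists (regulators, further markers, sensing, relatives, and markers of B, T, natural killer, plasma, erythroid, stromal, macrophage and conventional dendritic cells) were chosen with earlier results of these data known. Named are all members, called genes of each list (the 4 with the lowest p where more were called), and the gene with the lowest p where none was. For other cell types only calls or sums are given. An item of the further markers is not reported here.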

Additional observations from a re-analysis of the deposited data

How the results depend on the processing

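Of 374 log2 fold changes of the 6 tested members under alternatives, 16 turned their direction and 5 gained a call, all 5 of Pacsin1. The members called stayed at 0 in BWF1 females against BWF1 males, rose to 1 in BWF1 females against BALB/c females with no filter beyond 1 count or a robust dispersion, and to 1 in BWF1 males against BALB/c females with limma-voom or the older edgeR dispersion. Leaving out 1 library gave 0 to 1 members called in BWF1 females against BALB/c females and 0 in the others. As no member was called in the reported fit, no member call could be lost.

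The turned values were all of members not called. With library size only, which moved the median gene by 0.16, −0.29 and −0.44, Irf8 was at 0.10 in BWF1 females over BWF1 males and Tcf4 at −0.33 in BWF1 males over BALB/c females. With the file tag as a term, values over BALB/c females were 0.10 for Siglech in BWF1 females, and 0.69 for Siglech and 0.015 for Irf8 in BWF1 males. In ORIG libraries alone Siglech was at 0.38 in BWF1 females and 0.46 in BWF1 males. Leaving out 1 library in turn, values in BWF1 males over BALB/c females ran from −0.34 to 0.19 for Siglech (0.013 and 0.052 without BALB/c female 1 or 2, 0.19 without BWF1 male 3), from −0.091 to 0.024 for Irf8 (highest without BALB/c female 2) and from −0.21 to 0.28 for Tcf4 (lowest without BWF1 male 2). Lair1 ran from −0.17 (without BWF1 female 2) to 0.71 in BWF1 females over BALB/c females and from −0.86 to 0.015 (without BWF1 female 3) over BWF1 males, and Runx2 from −0.10 (without BWF1 female 2) to 0.35 there. The cause was not tested.

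The count of all genes called was 169 in BWF1 females against BWF1 males. It was 105 with DESeq2, 59 with library size only, 304 with no filter beyond 1 count, 99 in RL libraries alone, 98 with only the compared groups and 58 to 198 leaving out 1 library. Against BALB/c females, BWF1 females had 295, with 169 by DESeq2, 160 with the tag as a term, 130 with library size only and 184 to 370 leaving out 1 library. BWF1 males had 272, with 430 after Lars2 was removed before scaling, 153 with the tag, 650 by limma-voom, 510 without the filter, 484 with the older edgeR dispersion and 119 to 393 leaving out 1 library. RL or ORIG libraries alone and the older dispersion were added after seeing the data. Same-numbered libraries did not deviate together (r −0.09 to 0.06), so the numbers were not read as pairs. With a replicate block 118, 255 and 240 genes were called and 0 members in each comparison. The block ended 6 calls of list genes, those of Irf7 in BWF1 females against BALB/c females (adjusted p = 0.0764), Cd3e (0.0508), Klrb1c (0.0603) and Epb42 (0.055) in BWF1 females against males, and Nkg7 (0.0694) and Mzb1 (0.0605) in BWF1 males against BALB/c females. Library size only ended calls of Ly6d in BWF1 females against males (adjusted p = 0.748) and BALB/c females (0.251), among others. Against BALB/c it ended those of Cd22 (0.241), Irf7 (0.0632) and Siglecg (0.0637) in females and Cbfa2t3 in males (0.626). The list genes followed under alternatives were those called, and the lowest-p gene of the regulators, further markers, sensing genes or relatives where none was. Of their 1140 values, 165 lost their call, 2 gained one (Cox6a1 and Tyrobp) and 0 turned direction. Because these genes were picked by their p-values, that 0 cannot be set beside the turned values of the members. Depth limits Klk1 and Cox6a2 most, since 3 counts in a library stand at up to 6.62 CPM.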
